A study of Mus musculus with 7 samples.

Results

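The 10 genes described here are Timp1, Timp2, Timp3 and Timp4, which encode the tissue inhibitors of metalloproteinases (TIMPs), and Mmp2, Mmp9, Mmp11, Mmp14, Mmp15 and Mmp19, which encode matrix metalloproteinases (MMPs). They were picked by name, with earlier results of these data in view, from the 55487 Ensembl gene identifiers counted in ovarian RNA, so that their own difference between the groups is given as a description and carries no test. MMPs are zinc-dependent enzymes that cut collagens and other matrix proteins, and most are made as inactive proenzymes. TIMPs are small proteins that bind the active site of MMPs and block it, and TIMP2 also takes part in the activation of pro-MMP2 by MMP14, the membrane-anchored MT1-MMP. In the ovary, matrix is broken down and rebuilt at each cycle, when follicles rupture and when corpora lutea form and regress, and TIMP1 is known as a secreted product of follicle and luteal cells around ovulation.

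Ovaries of adult female C57BL6/J (B6) mice were taken at diestrus on postnatal day 60, and poly(A) RNA was sequenced in 3 CNTR and 4 PAMH F3 libraries. The study takes the libraries as separate mice, and the labels name no animal. CNTR mice were born to dams that were given PBS late in gestation. PAMH F3 mice are the third generation descended from dams given anti-Müllerian hormone (AMH) at 0.12 mg/kg per day over the same days of gestation, a prenatal model of polycystic ovary syndrome, and both later generations were bred from PAMH females and unrelated PAMH males without further AMH. Generation and treatment therefore cannot be told apart in this comparison. The sample labels give the injections as subcutaneous and the methods as intraperitoneal.

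Between 32158174 and 35485021 reads were counted on genes per library, and the lowest count of any of the 10 genes in a library was 111, for Mmp9. The libraries carried the defining transcripts of ovary, including granulosa, theca, luteal and oocyte markers, and also those of oviduct, with Ovgp1 between 2394 and 6172 CPM, and of fat, with Adipoq between 20.2 and 185 CPM. CPM are counts scaled to the library size after TMM normalization. CNTR 2 stood apart in base composition, with log2 CPM rising by 0.322 for each 10% of GC content, against slopes from -0.131 to 0.051 in the other libraries.

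On mm10, Timp1 (ENSMUSG00000001131) lies at chrX:20870166-20874735 on the plus strand, wholly within the span of Syn1 on the other strand. Timp2 is at chr11:118301069-118355740 (minus), Timp3 at chr10:86300372-86349506 (plus) and Timp4 at chr6:115241892-115252205 (minus). Mmp2 and Mmp15 share a chromosome, at chr8:92827291-92853420 and chr8:95352268-95375080, both on the plus strand. Mmp9 is at chr2:164940780-164955850 (plus), Mmp11 at chr10:75923222-75936496 (minus), Mmp14 at chr14:54431612-54445364 (plus) and Mmp19 at chr10:128790910-128800824 (plus). All are annotated as protein coding, and the spans include exons, introns and untranslated regions.

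RefSeq promoter windows, from 250 bases before to 49 bases after the first transcribed base on GRCm38.p6, were matched for 7 of the 10 genes. Those of Timp1, whose groups stood furthest apart, and of the pairs Timp2 with Timp3 and Mmp11 with Mmp14, whose levels followed each other over the libraries, are shown 5′ to 3′ on the strand of the gene, with matched motifs in capitals. The letters searched on both strands were TGANTCA (the AP-1 box), TGAGTAA (an AP-1-like box), GGGCGG (the GC box), CCAAT and TATAAA, and none contains another, though matches may overlap.
Timp1, chrX:20869916-20870215, plus strand: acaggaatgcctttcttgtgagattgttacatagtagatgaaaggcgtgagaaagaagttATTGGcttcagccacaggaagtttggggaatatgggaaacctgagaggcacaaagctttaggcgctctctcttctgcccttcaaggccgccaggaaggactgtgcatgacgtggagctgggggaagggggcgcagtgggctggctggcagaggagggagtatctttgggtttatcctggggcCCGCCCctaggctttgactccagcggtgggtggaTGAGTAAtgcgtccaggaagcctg
Timp2, chr11:118355362-118355661, minus strand: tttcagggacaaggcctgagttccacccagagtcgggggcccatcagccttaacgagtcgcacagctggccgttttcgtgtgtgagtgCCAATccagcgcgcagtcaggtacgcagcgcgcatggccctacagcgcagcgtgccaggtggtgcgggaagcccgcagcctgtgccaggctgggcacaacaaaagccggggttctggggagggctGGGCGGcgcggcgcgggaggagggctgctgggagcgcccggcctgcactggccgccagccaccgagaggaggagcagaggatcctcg
Timp3, chr10:86300162-86300461, plus strand: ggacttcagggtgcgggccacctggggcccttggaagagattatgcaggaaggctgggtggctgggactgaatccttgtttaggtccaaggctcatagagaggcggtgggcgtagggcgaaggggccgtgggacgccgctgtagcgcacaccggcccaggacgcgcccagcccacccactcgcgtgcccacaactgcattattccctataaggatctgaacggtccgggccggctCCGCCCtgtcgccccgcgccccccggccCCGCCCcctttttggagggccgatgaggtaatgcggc
Mmp11, chr10:75932453-75932752, minus strand: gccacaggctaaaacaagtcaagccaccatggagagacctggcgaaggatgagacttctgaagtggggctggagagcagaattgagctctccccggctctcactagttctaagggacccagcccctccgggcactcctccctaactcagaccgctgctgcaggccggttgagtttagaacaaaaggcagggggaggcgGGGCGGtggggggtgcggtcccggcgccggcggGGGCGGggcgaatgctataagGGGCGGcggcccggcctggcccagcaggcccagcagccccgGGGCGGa
Mmp14, chr14:54431348-54431647, plus strand: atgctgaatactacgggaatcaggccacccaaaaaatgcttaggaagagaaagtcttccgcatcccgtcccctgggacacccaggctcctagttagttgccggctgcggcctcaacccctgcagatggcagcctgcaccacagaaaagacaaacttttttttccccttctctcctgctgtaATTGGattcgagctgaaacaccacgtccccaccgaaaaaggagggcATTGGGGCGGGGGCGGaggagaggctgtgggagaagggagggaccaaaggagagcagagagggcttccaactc

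GGGCGG was found in 6 of the 7 matched windows, against 35.7% of the 32851 RefSeq promoters of the same length, and CCAAT in 3 of 7, against 37.4%. TGAGTAA was found in the Timp1 window alone of the 7, starting 27 bases into the transcript, and in 2.68% of all promoters. TGANTCA, present in 7.81% of all promoters, and TATAAA, present in 13.6%, had no match in any of the 7 windows. In Mmp14, a CCAAT match on the opposite strand and a pair of GC boxes follow each other without a gap, from base -23 to base -8, the first of them sharing 1 base with the CCAAT match. These matches describe the letters of the windows and are not evidence of binding.

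Timp1 was the gene whose groups differed most. It stood at 194, 158 and 298 CPM in the 3 CNTR libraries and at 150.4, 81.0, 46.9 and 123 CPM in the 4 PAMH F3 libraries. Every PAMH F3 library lay below every CNTR library, with the smallest gap between PAMH F3 1 and CNTR 2, and no other gene of the 10 had groups that did not overlap. Over all genes tested, 4.25% had groups that did not overlap and 2.4% had PAMH F3 below CNTR. The group means were 217 ± 73.0 CPM (SD, n = 3) and 100.3 ± 45.7 CPM (SD, n = 4), a ratio of 0.463. In edgeR's model, with 2 covariates for unwanted variation (surrogate variables), the log2 fold change was -1.27 (SE 0.23), and without these covariates it was -1.11 (SE 0.36). A log2 fold change below -1 was found for 0.49% of the 18779 genes tested. Timp1 also varied within the groups, with an SD of 0.64 on the log2 scale, higher than that of 95.4% of genes. In RNA from whole ovary, fewer cells of a type and less RNA per cell cannot be told apart.

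The other inhibitors had overlapping groups. Timp2, the partner of MMP14 and MMP2, stood at 274, 259 and 271 CPM in CNTR and at 309, 229, 209 and 232 CPM in PAMH F3. Timp3, which is held in the matrix, stood at 386, 332 and 360 CPM in CNTR and at 411, 313, 291 and 327 CPM in PAMH F3. In both genes PAMH F3 1 was the highest of all 7 libraries and the other PAMH F3 libraries lay below every CNTR library. The log2 fold changes were -0.18 (SE 0.13) for Timp2 and -0.17 (SE 0.11) for Timp3. Timp4 stood at 49.1, 54.6 and 49.5 CPM in CNTR and at 45.9, 61.1, 59.1 and 51.0 CPM in PAMH F3. It was the only one of the 10 genes with a fold change above 0, at 0.13 on the log2 scale (SE 0.09), and its PAMH F3 libraries lay on both sides of the CNTR libraries.

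**Figure D1:**
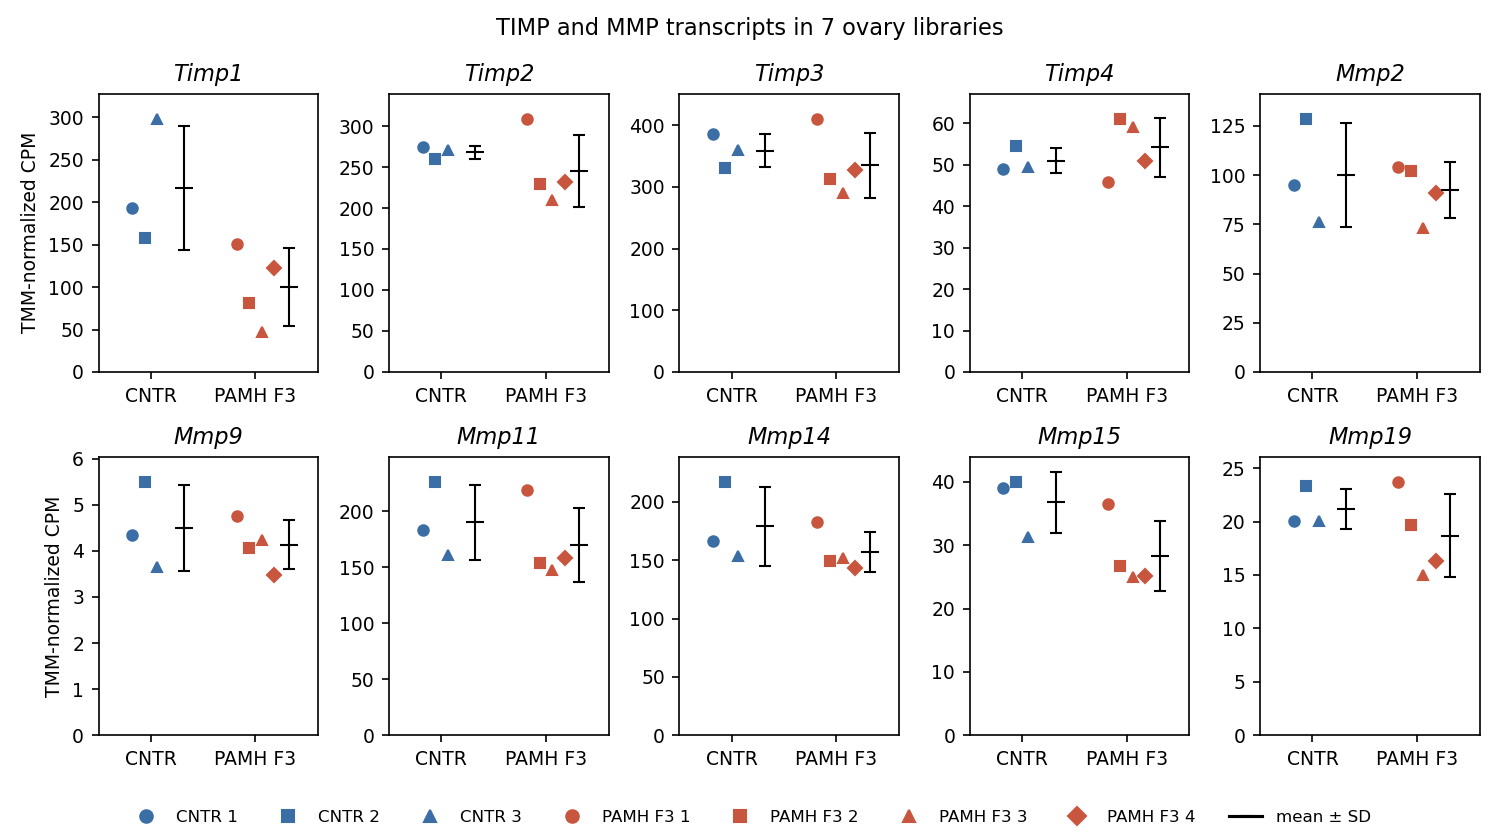
TMM-normalized CPM (y axis, from 0) of each gene in the 3 CNTR libraries (blue) and 4 PAMH F3 libraries (red), with black bars for the group mean ± SD. Timp1 is the panel in which the groups do not overlap, with means of 217 and 100.3 CPM, and PAMH F3 1 (red circle) is the highest PAMH F3 library in all panels except Timp4.

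The secreted gelatinases had group means that differed by less than the spread between libraries. Mmp2 stood at 95.0, 129 and 76.4 CPM in CNTR and at 104, 102, 73.1 and 90.9 CPM in PAMH F3. Mmp9, the least abundant of the 10, stood at 4.34, 5.49 and 3.65 CPM in CNTR and at 4.76, 4.07, 4.24 and 3.48 CPM in PAMH F3. In both genes the lowest PAMH F3 library was below the lowest CNTR library and the highest CNTR library, CNTR 2, was the highest of all. The log2 fold changes of -0.05 (SE 0.20) for Mmp2 and -0.07 (SE 0.18) for Mmp9 were smaller than their errors, and without CNTR 2 they were 0.08 and 0.01.

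Mmp14 and Mmp15 encode membrane-type MMPs, and Mmp14 can activate pro-MMP2 at the cell surface. Mmp14 stood at 166, 217 and 154 CPM in CNTR and at 183, 149.8, 152 and 144 CPM in PAMH F3. Mmp15 stood at 39.0, 40.0 and 31.3 CPM in CNTR and at 36.4, 26.7, 24.9 and 25.1 CPM in PAMH F3. In both genes, PAMH F3 2, 3 and 4 lay below all CNTR libraries, whereas PAMH F3 1 lay within them. The log2 fold changes were -0.13 (SE 0.13) for Mmp14 and -0.41 (SE 0.16) for Mmp15, and correction for GC content and length without surrogate variables brought that of Mmp15 to -0.20.

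Mmp11, stromelysin 3, is activated inside the cell by furin, and Mmp19 is a secreted MMP of follicle and stromal tissue. Mmp11 stood at 183, 226 and 161 CPM in CNTR and at 219, 154, 148 and 158 CPM in PAMH F3, and edgeR gave it a log2 fold change of -0.15 (SE 0.18). Mmp19 stood at 20.1, 23.3 and 20.1 CPM in CNTR and at 23.7, 19.7, 15.01 and 16.3 CPM in PAMH F3, and edgeR gave it a log2 fold change of -0.18 (SE 0.18). PAMH F3 1 was close to CNTR 2, the highest CNTR library, in both genes. As in Mmp14 and Mmp15, PAMH F3 2, 3 and 4 lay below all CNTR libraries.

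Of the 10 genes, 9 had a log2 fold change below 0, as did 47.8% of all genes tested. Their median was -0.16, against 0.01 over all genes. None of the 10 passed the adjusted threshold of 0.05 in edgeR's quasi-likelihood test, which called 0% of the 18779 genes, while Timp1 and Mmp15 were among the 7.63% with an unadjusted p under 0.05. DESeq2 with the same covariates called 107 genes, or 0.57%, with Timp1 as the 1 of the 10 called. Since the genes were listed with this contrast known, nothing is read from these counts. Without PAMH F3 1, edgeR called 31 genes, Timp1 among them, and the log2 fold change of Timp1 was -1.44. In that setting an unadjusted p under 0.05 was found for 1966 of the 18570 genes tested. These included 7 of the 10 (all but Mmp2, Mmp9 and Mmp19), whose levels are not independent of each other. Without CNTR 1, PAMH F3 2, PAMH F3 3 or PAMH F3 4, Timp1 alone of the 10 had an unadjusted p under 0.05. Over all genes tested, 3256 of 19094, 795 of 18591, 1169 of 18535 and 1206 of 18626 had one in turn. Without PAMH F3 3, the library with the least Timp1, the log2 fold change of Timp1 was -0.99.

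**Figure D2:**
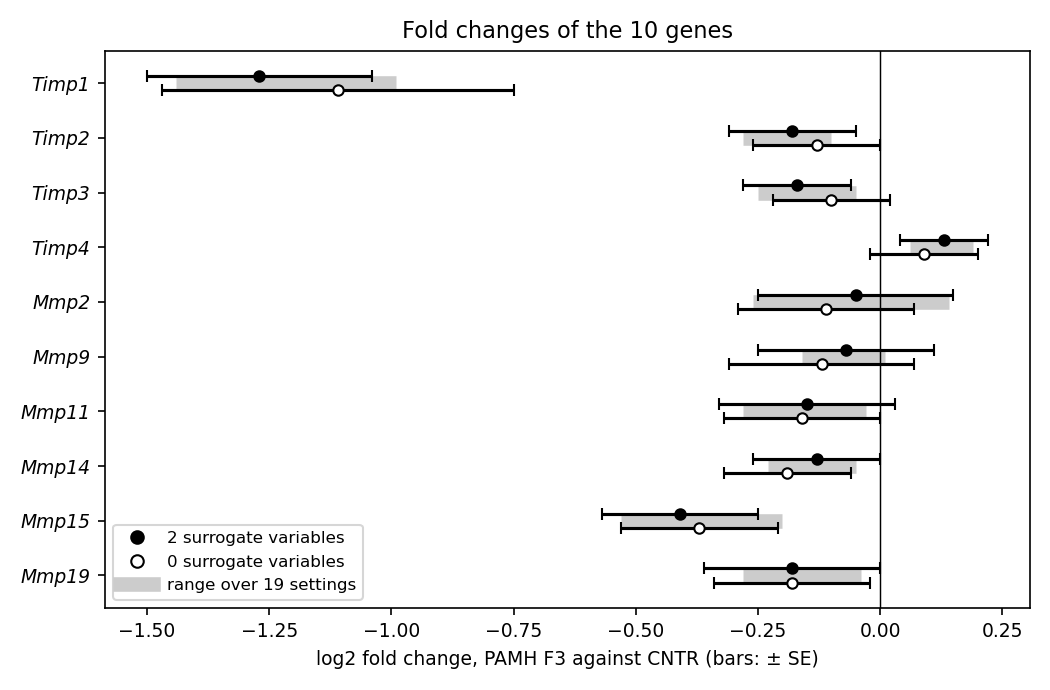
Log2 fold change of PAMH F3 against CNTR (x axis) for each gene, with SE bars, from edgeR with 2 surrogate variables (filled) and with 0 (open), over a gray band for the range of the estimates across 19 settings. Timp1 runs from -1.44 to -0.99, apart from the other 9 genes, and the bands of Mmp2 and Mmp9 reach above 0.

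Levels were next compared between the genes as CPM per kb of exon, which takes transcript length into account. Timp1 was the most abundant at 169 ± 92.0 CPM per kb (SD, n = 7), above 99.3% of genes tested, and Timp2 followed at 65.4 ± 8.65 CPM per kb. Mmp11 at 64.3 ± 11.6, Timp3 at 42.4 ± 5.19, Mmp2 at 28.4 ± 5.55 and Mmp14 at 27.9 ± 4.33 CPM per kb came next, above 97.1%, 94.5%, 90.2% and 90.0% of genes in turn. Timp4 was at 8.98 ± 0.951, Mmp15 at 5.92 ± 1.22, Mmp19 at 5.59 ± 0.917 and Mmp9 at 1.21 ± 0.192 CPM per kb. In an exact two-sided sign-flip permutation test over the 7 libraries, 6 of the 9 neighboring pairs in this order differed after adjustment over the 9 pairs. Timp2 and Mmp11 (adjusted exact p = 0.65), Mmp2 and Mmp14 (adjusted exact p = 0.77) and Mmp15 and Mmp19 (adjusted exact p = 0.34) were not told apart. Timp1 exceeded Timp2 in 6 of 7 libraries, with PAMH F3 3 as the exception (adjusted exact p = 0.047). With 1 library left out, this pair passed only without PAMH F3 3, and its adjusted exact p was 0.080 or 0.094 without any other library. With the median transcript length in place of the exon length, Mmp11 and Mmp14 came before Timp1, so the place of Timp1 at the top depends on which length is used. The pairs not told apart depend on it as well. By that length Mmp11 was at 243.5 and Timp2 at 115 CPM per kb, and Mmp14 was at 213.6 and Mmp2 at 95.2 CPM per kb.

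The make-up of the inhibitor pool differed between the groups through Timp1. It provided 63.4%, 60.4% and 73.4% of the summed TIMP level (CPM per kb) in the CNTR libraries and 55.2%, 45.9%, 34.7% and 56.1% in the PAMH F3 libraries. The shares did not overlap, and as they follow from the Timp1 values they were not tested. The summed level of the 4 TIMPs over that of the 6 MMPs was 2.70 ± 1.08 (SD, n = 3) in CNTR and 1.77 ± 0.325 (SD, n = 4) in PAMH F3, with overlapping libraries. Without Timp1 the ratio was 0.878 ± 0.179 in CNTR and 0.895 ± 0.0174 in PAMH F3. Among the MMPs, Mmp11 provided between 45.3% and 50.8% of the summed level in every library. These shares and ratios use the exon length and were not computed with the median transcript length. By that length the mean levels were 175 CPM per kb for Timp1, 115 for Timp2, 170.9 for Timp3 and 16.4 for Timp4. Mmp11 was at 243.5, Mmp14 at 213.6 and Mmp2 at 95.2 CPM per kb. How large a part Timp1 has, and whether TIMPs exceed MMPs, therefore depends on the length used.

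**Figure D3:**
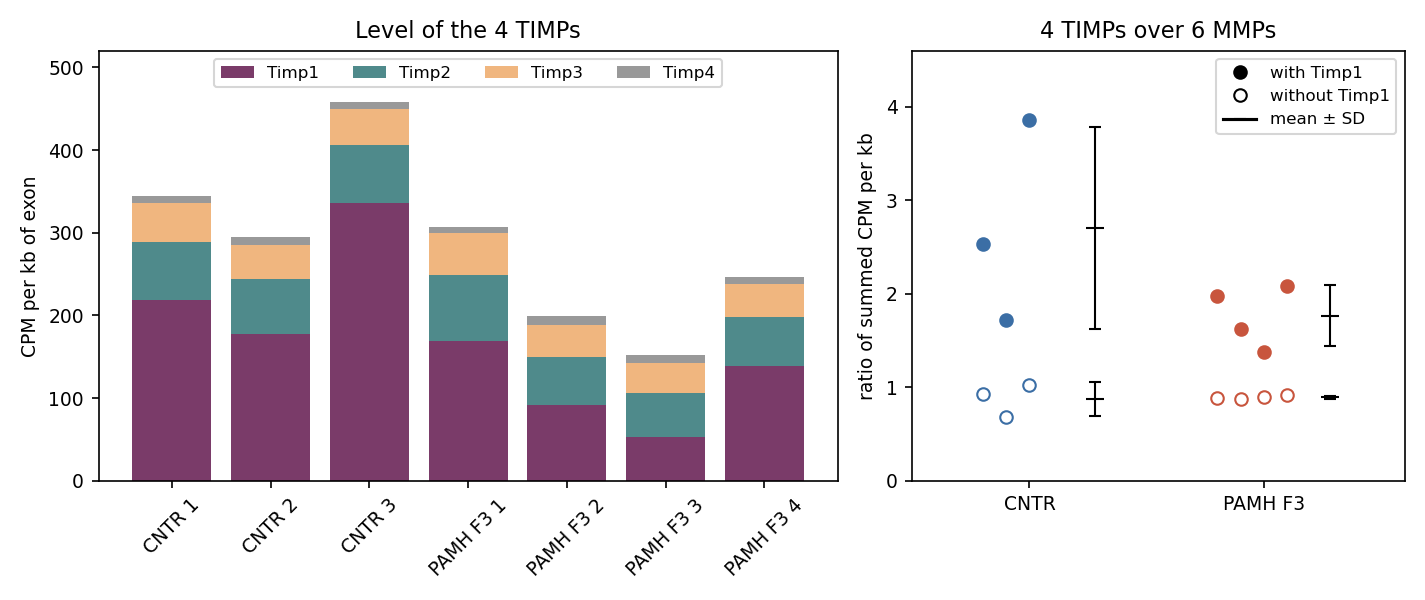
Left, level of the 4 TIMPs in CPM per kb of exon (y axis), stacked, in each library. Right, ratio of the summed level of the 4 TIMPs to that of the 6 MMPs per library, with Timp1 (filled) and without it (open), and the mean ± SD beside them. The filled points average 2.70 in CNTR and 1.77 in PAMH F3, and the open points 0.878 and 0.895.

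Across the 7 libraries, Timp2 and Timp3 followed each other in the same rank order (Pearson's r = 0.96, exact permutation p = 0.0016, adjusted p = 0.040; Spearman's rho = 1.0, exact permutation p = 4.0e-04, adjusted p = 0.018; 45 pairs of genes tested). The r was 0.88 without the 2 libraries farthest from the median of Timp2, and 0.96 after the group means were removed. Mmp14 followed Mmp9 (r = 0.93, exact permutation adjusted p = 0.040; rho = 0.89, adjusted p = 0.092) and Mmp11 (r = 0.93, exact permutation adjusted p = 0.042; rho = 0.86, adjusted p = 0.13). Without the 2 farthest libraries these were 0.78 and 0.77, within the groups 0.94 and 0.92. By rho, these MMP pairs did not pass the threshold. All 15 pairs of MMPs had a positive r, from 0.61 to 0.93, and 36 of all 45 pairs had one. Without CNTR 2, the library apart in GC content, r of the MMP pairs ran from 0.40 (Mmp2 with Mmp9 and with Mmp15) to 0.94 (Mmp11 with Mmp14). How often pairs of other genes reach such an r was not tested. Timp4 ran opposite to Timp3, with r = -0.90 (exact permutation adjusted p = 0.071) and rho = -0.93 (adjusted p = 0.076), which did not pass. Timp1 had r = 0.77 with Timp2 and r = 0.73 with Timp3, which did not pass either (exact permutation adjusted p = 0.13 and 0.14).

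**Figure D4:**
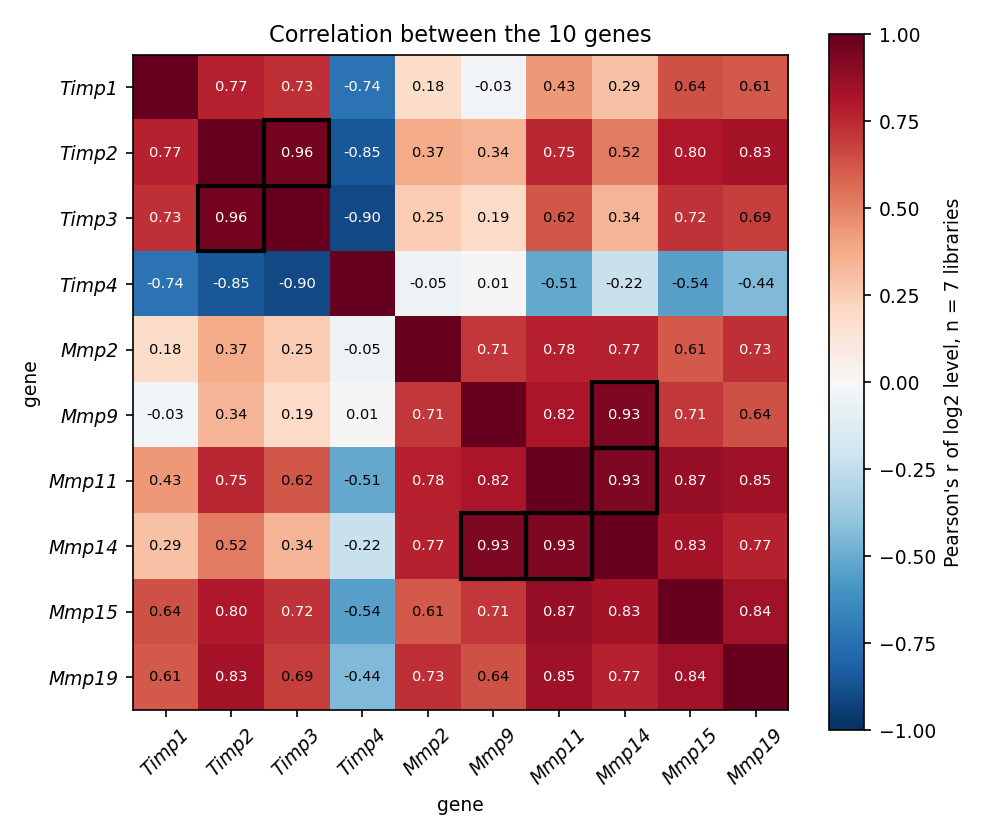
Pearson's r between each pair of the 10 genes over the 7 libraries, from log2 of CPM per kb plus 0.1 (color scale from -1 to 1). Black frames mark the 3 pairs with an adjusted p of at most 0.05, Timp2 with Timp3 at 0.96 and Mmp14 with Mmp9 and Mmp11 at 0.93 each.

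Timp1, Timp3 and Timp4 share loci with the synapsin genes, which encode phosphoproteins of synaptic vesicles. Timp1 lies within Syn1 and shares 0 exon bases with it, Timp3 within Syn3 with 1733 exon bases shared (21.3% of its exons), and Timp4 within Syn2 with 90 exon bases shared (1.53%). In each case the genes are on opposite strands. The kit marks strand, and the strand setting of the counting is not given in the sources used here, so reads from the shared bases may have been set aside or misassigned. Similarly, Mmp19 shares 789 exon bases (22.3%) with Tmem198b and 212 (6%) with the antisense gene Gm47093, and Mmp11 shares 155 (5.58%) with Chchd10. Cep295nl lies within Timp2 on the same strand with 0 exon bases shared. Timp4 also lies within Gm17482, on the opposite strand and with 0 exon bases shared.

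Syn2 stood at 18.3, 44.0 and 16.6 CPM in CNTR and at 32.98, 41.9, 46.0 and 30.5 CPM in PAMH F3, a log2 fold change of 0.87 (SE 0.12). CNTR 2 lay among the PAMH F3 libraries. In edgeR's quasi-likelihood test this missed the adjusted threshold (adjusted p = 0.37, unadjusted p = 1.5e-04), and DESeq2 called it (adjusted p = 7.1e-07). Without surrogate variables the log2 fold change was 0.53 (SE 0.33). Syn1 had a log2 fold change of -0.20 (SE 0.20), Syn3 of -0.02 (SE 0.19), Cep295nl of -0.43 (SE 0.36), and Araf, which neighbors Syn1 and Timp1, of 0.05 (SE 0.06). Each TIMP gene was compared over the 7 libraries with the synapsin gene around it or, for Timp2, with Cep295nl, and 0 of these 4 correlations passed the adjusted threshold, the highest being r = 0.78 for Timp2 and Cep295nl (exact permutation adjusted p = 0.17; rho = 0.86, adjusted p = 0.095).

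Other proteases, their regulators and their substrates were taken as lists, and none of their genes passed the adjusted threshold in edgeR or in DESeq2 with the same covariates. DESeq2 gave some of these genes no adjusted p, Mmp3 and Pcolce2 among them, so they could not pass there. Of 17 other MMPs, 13 were tested, with a median log2 fold change of -0.13. Mmp3, stromelysin 1, stood at 0.874, 0.780 and 1.05 CPM in CNTR and at 0.227, 0.632, 0.474 and 0.251 CPM in PAMH F3, on 8 to 34 counts per library. Its groups did not overlap (log2 fold change -1.14, SE 0.41, adjusted p = 0.61 in edgeR). Mmp10, stromelysin 2, had a log2 fold change of 1.00 (SE 0.42, edgeR's adjusted p = 0.65), with CNTR 3 at 0.371 CPM and the other libraries between 2.31 and 5.58 CPM.

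In the plasminogen activator system, which produces the plasmin that can activate pro-MMPs, 8 of 10 genes were tested, with a median log2 fold change of -0.11. Plat, the tissue plasminogen activator, had a log2 fold change of -0.19 (SE 0.07, edgeR's adjusted p = 0.64), and its groups overlapped. Among 19 other regulators and partners, Pcolce2, an enhancer of procollagen processing, had a log2 fold change of -0.68 (SE 0.24) and Furin, the protease that activates MMP11 and MMP14, one of -0.30 (SE 0.12), with adjusted p of 0.60 and 0.65 in edgeR. CNTR 2 held the highest Furin level at 145 CPM, and the other 6 libraries lay between 65.5 and 89.1 CPM.

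The ADAM and ADAMTS proteases, which TIMP3 in particular can inhibit, had medians of -0.01 over 9 genes and 0.05 over 18 tested genes. Adamts6 had a log2 fold change of 0.53 (SE 0.16) and Adamts2, a procollagen N-propeptidase, one of 0.26 (SE 0.11), with adjusted p of 0.56 and 0.65 in edgeR. Of 20 matrix substrates, all tested, 13 had a fold change below 0 and the median was -0.09. Lama1, a laminin chain of basement membranes, had a log2 fold change of 0.23 (SE 0.09, edgeR's adjusted p = 0.63). The genes named from these lists had an unadjusted p under 0.05, a threshold that 7.63% of all genes passed. Without surrogate variables Mmp3 and Furin kept it, at log2 fold changes of -1.18 (SE 0.36) and -0.48 (SE 0.19). Plat, at -0.09 (SE 0.27), Adamts6, at 0.34 (SE 0.24), and Mmp10, at 0.89 (SE 0.58), did not, and nor did Pcolce2, Adamts2 and Lama1.

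**Figure D5:**
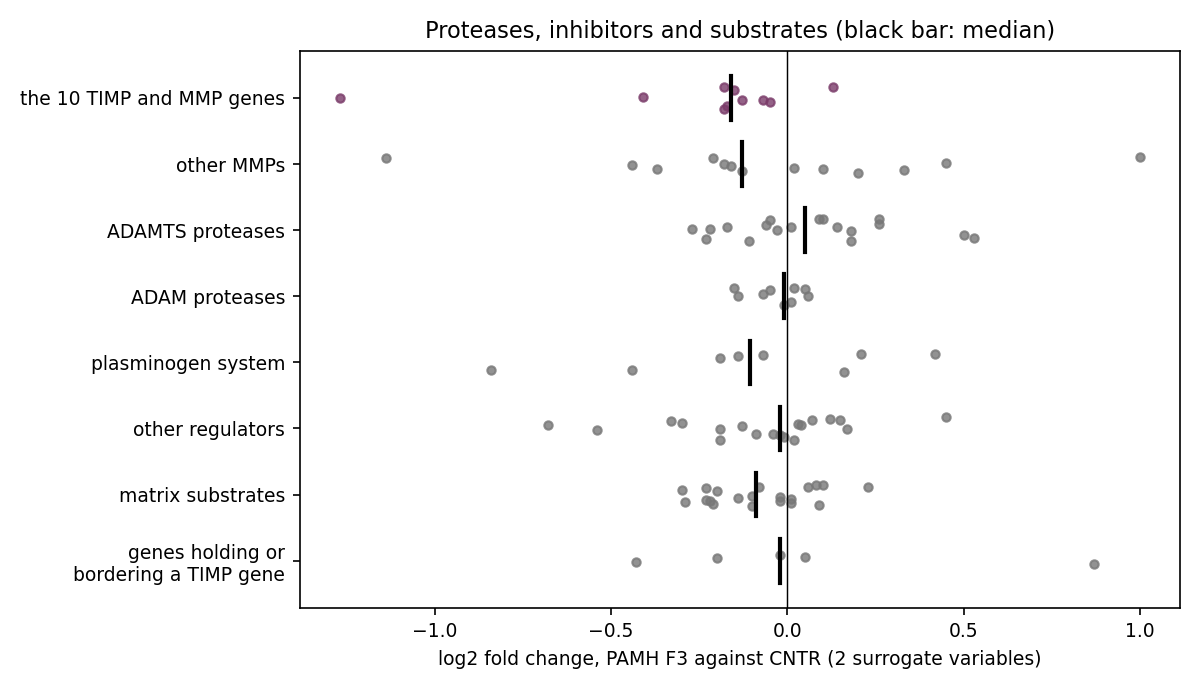
Log2 fold change of PAMH F3 against CNTR (x axis, edgeR with 2 surrogate variables) of each tested gene in the lists of proteases, regulators and substrates, with a black bar at the median of each list. Timp1 at -1.27 and Mmp3 at -1.14 are the lowest points, Mmp10 at 1.00 and Syn2 at 0.87 the highest.

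Markers of ovarian cell types were read beside Timp1. All 4 luteal markers had a log2 fold change below 0, from -0.95 (SE 0.28) for Ptgfr, the prostaglandin F receptor, to -0.06 for Akr1c18. Their summed level was 1757, 1713 and 3128 CPM in CNTR and 1992, 1171, 1445 and 1620 CPM in PAMH F3. CNTR 3, also the library with the most Timp1, set the top of the CNTR range, and CNTR 1 and CNTR 2 lay within the PAMH F3 range. Without CNTR 3, 3 of the 4 markers were below 0 and the highest log2 fold change was 0.48. It was also 3 of 4 without PAMH F3 1, PAMH F3 2 or PAMH F3 4. The mean of the luteal list had r = 0.80 with Timp1 (exact permutation adjusted p = 0.21 over 11 lists; rho = 0.82, adjusted p = 0.36). All 6 endothelial markers were below 0 as well, with a median of -0.19. They ran from -0.44 (SE 0.11) for Pecam1, the platelet endothelial adhesion molecule, to -0.12. Without CNTR 1 or without PAMH F3 3, 5 of the 6 were below 0. The endothelial markers summed to between 247 and 282 CPM in CNTR and between 198 and 295 CPM in PAMH F3. The endothelial list had r = 0.80 with Timp1 (exact permutation adjusted p = 0.21; rho = 0.75, adjusted p = 0.36). The summed stroma and fibroblast markers did not overlap between the groups, with 1607 to 1666 CPM in CNTR and 1230 to 1589 CPM in PAMH F3, 5 of 6 markers below 0, and r = 0.59 with Timp1 (exact permutation adjusted p = 0.33; rho = 0.64, adjusted p = 0.44). Taken singly, 0 of the 6 stroma and fibroblast markers had groups that did not overlap, against 4.25% of all genes tested. Their sum was 1 of 11 looked at. In the remaining 8 lists r ran from -0.58 for oviduct epithelium to 0.63 for theca. No marker was at 0 in every library, no list passed the adjusted threshold, and the part of cell composition in the Timp1 values was not tested.

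Among all genes tested, those most like Timp1 over the 7 libraries by Pearson's r of log2 CPM were Tor1aip1 (0.99), Pcdhb17 (0.97), Gas2 (0.97), Homer2 (0.96) and Nrcam (0.96). They were chosen as the highest r and have no test. After the group means were removed, their r was between 0.90 and 0.98. Nrcam, a neuronal cell adhesion molecule, had the widest range, at 101, 104 and 139 CPM in CNTR and 87.2, 30.0, 10.9 and 34.7 CPM in PAMH F3. Tor1aip1, a protein of the inner nuclear membrane, stayed between 80.9 and 97.4 CPM. The genes least like Timp1 were C130074G19Rik (r = -0.98) and Trit1 (r = -0.98), a tRNA-modifying enzyme.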

How the data were processed

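The ovarian libraries were made by the authors with a stranded poly(A) kit, mapped to mm10 with STAR 2.5.3a and counted with HTSeq-count 0.6.1p1 in union mode on uniquely aligned reads, and the deposited values are these raw counts per gene, without normalization. The annotation release and the strand setting are not given in the sources used here. Of 55487 identifiers, 55394 were matched to GENCODE M21. The 5 HTSeq summary lines per library were left out. They include between 5.82% and 7.37% of alignments that overlapped no counted feature and between 37.7% and 40.7% not unique. SDs are over libraries of one group, which the study takes as separate mice. Those of the level per kb of each gene are over all libraries, and those on the log2 scale are pooled within both groups. The labels give a number per library and no animal, so p-values measure the spread between these libraries.

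The quasi-likelihood F test of edgeR 4.0.16 (R 4.3.3) compared the groups after TMM normalization. It covered 18779 genes that passed filterByExpr at a minimum count of 10. The model held 2 surrogate variables from svaseq (sva 3.50.0), their number estimated by num.sv with 20 permutations and seed 1, which left 3 residual degrees of freedom. Benjamini-Hochberg adjustment ran over all genes tested, with a threshold of 0.05. DESeq2 1.42.0 was an alternative. Levels per kb used the exon union and log2 of the value plus 0.1, and were tested by exact sign-flip permutation over 7 libraries, where the smallest possible p is 0.0156. Correlations between the genes used the same values and, for markers, genes around a TIMP gene and genes like Timp1, log2 CPM with a prior count of 2, with exact permutation over 5040 orders of the libraries. The tests across genes were checked on simulated data with 0 surrogate variables only, so the model with 2 was not checked in this way.

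The 10 genes, the lists of related genes and the cell type markers were chosen with earlier results of these data known. Named beside the 10 genes were, in each related list, genes past the adjusted threshold or otherwise up to 4 with the smallest unadjusted p under 0.05, all genes that hold or border a TIMP gene, the 5 genes with the highest and the 2 with the lowest r with Timp1, and defining markers or those of a list with r above 0.8. The luteal markers Ptgfr and Akr1c18, whose list had r = 0.795, were named after their values were seen. A result that this rule would name is not reported here. The pairing of TIMP genes with the genes around them was compared after values were seen. Alternatives were 0, 1 or 3 surrogate variables, DESeq2, median-ratio size factors, other filters on low counts, robust fitting, the replicate number as a block, a correction for GC content and length, another length or pseudocount for levels, and each library left out in turn. Promoter sequences are from RefSeq (GRCm38.p6).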

Additional observations from a re-analysis of the deposited data

Results flagged for a closer look

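In the 4 PAMH F3 libraries, a single library stood away from the others for 2 of the 10 genes. Mmp11 was at 219 CPM in PAMH F3 1 and between 148 and 158 CPM in the other PAMH F3 libraries, and the gap to the nearest of them was 0.849 of the whole range, above Dixon's critical value at the 95% level. Mmp15 was at 36.4 CPM in the same library and between 24.9 and 26.7 CPM in the others, a gap of 0.841 of the range. The values of 24 genes were screened in this way, and chance alone flags about 1 in 20.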

How the results depend on the processing

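The count of genes called over the whole table was 0 with the model used throughout, at an unadjusted p under 0.05 for 1432 genes. It was 107 in DESeq2 with the same surrogate variables, 6 in DESeq2 with 0 surrogate variables and 8 without a filter on low counts. With 1 library left out it ran from 0 to 37, with 37 without CNTR 1, 31 without PAMH F3 1 and 0 otherwise. The cause was not tested. Of the 10 genes, Timp1 was called in DESeq2 with the same surrogate variables and in edgeR without PAMH F3 1. Of the genes that hold or border a TIMP gene, 1 was called in DESeq2 with the same surrogate variables and 1 without the filter. The number of neighboring levels told apart, 6 of 9, ran from 0 to 6 with 1 library left out and was 0 without CNTR 1, CNTR 3, PAMH F3 1 or PAMH F3 4. With 6 libraries the smallest possible exact p is 0.031, and in those 4 settings 5 pairs reached it, which gives an adjusted p of 0.056, whereas 6 pairs reached it in the other 3, which gives 0.047. All 180 log2 fold changes of the 10 genes under the alternatives moved by less than 1 SD of the gene's log2 CPM within groups. That SD measures the spread between libraries and is wider than the SE of the fold change, at 0.64 against 0.23 for Timp1. Mmp15 moved by more than its SE of 0.16, from -0.41 to -0.20, with the GC and length correction and 0 surrogate variables. Mmp2 was at 0.08 without CNTR 2 and 0.14 without PAMH F3 3, and Mmp9 at 0.01 without CNTR 2. Deviations of same-numbered libraries from their group means had r of 0.096, 0.097 and -0.248, and those of other pairs ran from -0.235 to 0.277. In groups this small, these values cannot settle whether replicate numbers pair the libraries. With the replicate number as a block and 0 surrogate variables, 0 genes were called and 442 had an unadjusted p under 0.05.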
